A study of Caenorhabditis elegans with 6 samples.

Results

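The genes described are 10 nuclear genes that encode subunits of respiratory complex I in *Caenorhabditis elegans*: *nuo-1* to *nuo-6*, *gas-1*, *lpd-5*, *nduf-2.2* and *nduf-7*. They were picked by name from the deposited gene table, and all 10 were found among its 46904 genes. RNA bound to tagged ribosomes was sequenced in 6 libraries from young adults of strain CLP1481, 3 from animals placed for 6 h on a bacterial lawn with 4.5 µM antimycin A and 3 from animals placed for 6 h on a lawn with EtOH, the control. All animals carried the array twnEx675, with an HA-tagged *rpl-22*, a gene of the large ribosomal subunit, under the *tbh-1* promoter and GFP under the *gcy-8* promoter. Animals were grown at 20 °C, and no other allele is given. The tag was used to pull down ribosomes with an anti-HA antibody. The labels name *tbh-1* expressing neurons as the cell type, which rests on where this promoter is active. Each of 3 independent experiments gave 1 library of each kind, so libraries with the same replicate number form a pair.

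Complex I (NADH:ubiquinone oxidoreductase) is the entry point for electrons from NADH into the mitochondrial respiratory chain. Its peripheral arm in the matrix takes electrons from NADH through a flavin, passes them along iron-sulphur clusters and reduces ubiquinone, and its membrane arm pumps protons. Most subunits are encoded in the nucleus and imported, and a few hydrophobic ones of the membrane arm are encoded in mitochondrial DNA. Antimycin A blocks complex III, which lies downstream and reoxidises the ubiquinol that complex I makes. In *C. elegans*, mutants of *gas-1* are known for hypersensitivity to volatile anaesthetics and a short life, and a mutant of *nuo-6* for a long one. The roles of the single subunits given here are those of their mammalian homologues.

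*tbh-1* itself had 2156, 2683 and 1455 TPM (a length-corrected share of a library) in antimycin A and 1592, 1722 and 1684 TPM in EtOH. The other markers listed for *tbh-1* cells were far lower, with means over the libraries of 14.9 TPM for *tdc-1* and 1.99 TPM for *cat-1*. Of 12 pan-neuronal markers 9 passed the filter of 1 TPM in 3 libraries, with means over the libraries of up to 255 TPM for *snb-1*, while *unc-31* and *rgef-1* were below 1 TPM in all libraries. All 10 intestine markers passed, with means of 8.70 TPM for *elt-2* to 2234 TPM for *vit-2*, as did all 4 of gonadal sheath, with means of 4.22 TPM for *ceh-18* to 3911 TPM for *inx-8*. The libraries held 10573 to 11608 genes at 1 TPM or more in antimycin A and 9951 to 11046 in EtOH. Ribosomal RNA took 19.03% of the TPM of antimycin A replicate 3, against 6.10% to 12.9% of the other libraries.

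Transcripts of complex I were lower in antimycin A for part of the 10 genes. The 2 genes that fell were *nduf-7*, for the iron-sulphur subunit next to the quinone site, and *lpd-5*, for an accessory subunit of the peripheral arm, and these were also the 2 with the highest levels in EtOH. The other 8 were not called, and 0 rose. The 10 genes together had 1591, 1403 and 1094 TPM in antimycin A replicates 1 to 3, against 2134, 1942 and 1727 TPM in EtOH replicates 1 to 3. The antimycin A libraries all lay below the EtOH libraries in this sum. *nduf-7* and *lpd-5* supplied a large part of it, and gene by gene this held for 3 of the 10. TPM corrects for gene length, so levels can be compared between genes, but it holds no read count and the depth is unknown.

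The count of 2 of 10 lower stands beside 6.47% lower among all 11099 genes tested, and the count of 0 higher beside 14.2%. The test was limma on log2(TPM + 1) with group as its only term and a threshold of 0.05 on the Benjamini-Hochberg adjusted p. The median log2 fold change (antimycin A over EtOH) of the 10 genes was -0.33, and that of all tested genes was 0.21. Among genes that average 100 TPM or more over the libraries, a level chosen after the values were seen, 28.9% were lower, and of the 6 complex I genes at that level 2 were lower. The share of abundant genes that fell was well above that of all genes, and 2 of 6 is close to it.

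With a term for the replicate number (the replicate block), 5 of the 10 were lower, beside 13% of all tested genes, and 0 were higher, beside 29.6%. The 3 added genes were *nuo-1*, *nuo-2* and *nuo-6*. Median-of-ratios scaling gave the same 5 genes as lower and brings the median of all tested genes to -0.03 (10.7% of all tested genes lower). They are also the 5 with q below 0.05 and a negative log2 ratio in the authors' deposited table (11.7% of the tested genes). Other settings called other genes: quantile normalization gave 3 as lower, *nduf-7*, *nuo-1* and *nuo-2*, and sample quality weights gave 5, with *gas-1* (adjusted p = 0.0240) called and *nuo-6* (0.532) not. The shares of all tested genes under quantile normalization, under quality weights and with libraries left out were not taken. All these results use the same 6 libraries, so they are not independent of each other. In the fit with group alone, leaving out EtOH replicate 2 left 0 of the 10 lower. Leaving out replicate 2 or 3 of antimycin A, or replicate 1 or 3 of EtOH, left 1.

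**Figure D1:**
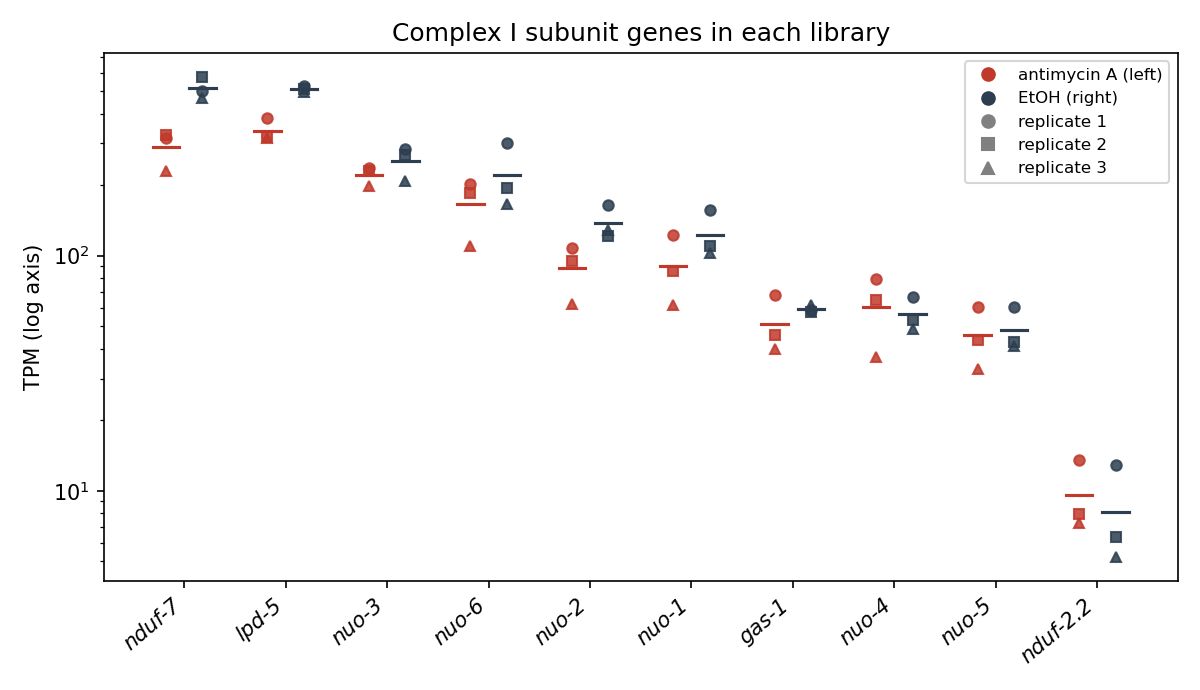
Level of the 10 complex I genes in each library, in TPM on a log axis, ordered by the mean in EtOH; antimycin A stands left of EtOH for each gene, bars are means of 3 libraries and symbols give the replicate. *nduf-7*, *lpd-5* and *nuo-2* have all 3 antimycin A values below all 3 EtOH values, and replicate 3 is the lowest antimycin A library for all 10 genes.

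Among the subunits that carry electrons to ubiquinone, *nduf-7* (WBGene00012376, WBcel235 chromosome I, 9108173 to 9110918) encodes the one that holds the last iron-sulphur cluster of the chain. It had 317, 327 and 229 TPM in antimycin A and 500.1, 575 and 468 TPM in EtOH. The groups did not overlap, and every antimycin A library lay below every EtOH library. The means were 291 ± 53.9 TPM in antimycin A and 514 ± 55.2 TPM in EtOH (SD, n = 3 each). The log2 fold change was -0.83 ± 0.21 SE (limma adjusted p = 0.0166; blocked 4.31e-05). Without EtOH replicate 2 the adjusted p was 0.0931, without both libraries of pair 2 it was 0.208, and without those of pair 3 it was 0.0590. With any other single library left out it stayed below the threshold. Without the mean-variance trend it was 0.0600.

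*gas-1* (WBGene00001520, chromosome X, 15586812 to 15590397) and *nduf-2.2* (WBGene00006463, chromosome III, 6465157 to 6467208) both encode the iron-sulphur protein that forms the quinone site together with the product of *nduf-7*. *gas-1* had 68.3, 45.8 and 40.1 TPM in antimycin A and 58.7, 57.6 and 62.0 TPM in EtOH. The EtOH libraries lay within a narrow span, with the antimycin A libraries on both sides of it. The fitted log2 fold change was -0.24 ± 0.25 SE (limma adjusted p = 0.612) with a 95% interval of -0.79 to 0.31. With sample quality weights *gas-1* was called lower, at -0.31 (adjusted p = 0.0240). *nduf-2.2* had the lowest level of the 10, with 13.5, 7.997 and 7.30 TPM in antimycin A and 12.8, 6.36 and 5.23 TPM in EtOH. It was higher in antimycin A in 3 of 3 pairs, but its groups overlapped almost fully, with replicate 1 the highest in both. Its log2 fold change was 0.26 ± 0.40 SE (limma adjusted p = 0.761; 95% interval -0.63 to 1.14).

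*nduf-2.2* made up 16.5%, 14.9% and 15.4% of the summed TPM of *nduf-2.2* and *gas-1* in antimycin A replicates 1 to 3, against 17.9%, 9.95% and 7.79% in EtOH replicates 1 to 3. The share was nearly equal in the antimycin A libraries, while EtOH replicate 1 stood above them and EtOH replicates 2 and 3 below. The log2 ratio of *nduf-2.2* to *gas-1*, each as TPM + 1, averaged -2.31 ± 0.063 in antimycin A and -2.81 ± 0.63 in EtOH (SD, n = 3 each). The difference of 0.50 did not pass (two-sided exact permutation test, p = 0.40, where 0.10 is the smallest p that 3 against 3 allows). The summed germline markers were also highest in replicate 1, at 316, 164 and 134 TPM in antimycin A and 447, 155 and 127 TPM in EtOH, and their part in this ratio was not tested. The 2 genes are related in sequence, and how reads shared by both were assigned is not given in the sources used here.

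**Figure D2:**
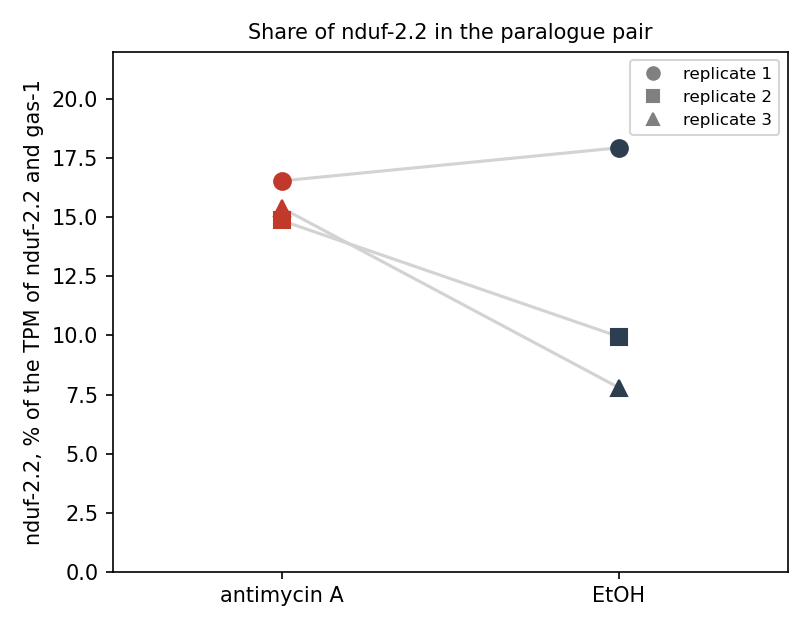
Share of *nduf-2.2* in the summed TPM of *nduf-2.2* and *gas-1*, in percent, for each library; lines join the libraries of 1 pair. The antimycin A libraries sit between 14.9% and 16.5%, and the EtOH libraries between 7.79% and 17.9%.

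*nuo-2* (WBGene00020417, chromosome I, 6530131 to 6531963), for a further core subunit of the peripheral arm, had 108, 94.8 and 62.3 TPM in antimycin A and 164, 121 and 128 TPM in EtOH. As for *nduf-7* and *lpd-5*, the groups did not overlap, which was so for 3 of the 10 genes and, in the same direction, for 11.6% of all tested genes. For 0 of the 10 did the antimycin A libraries all lie above the EtOH libraries, as they did for 23.1% of all tested genes. The spread within each group was wide, with a log2 fold change of -0.66 ± 0.25 SE (limma adjusted p = 0.0986; blocked 0.00107). Under median-of-ratios scaling the log2 fold change was -0.95 (adjusted p = 0.00997).

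The NADH end of the arm is formed by *nuo-1* (WBGene00003831, chromosome II, 11097841 to 11100146), for the flavin subunit that binds NADH, and *nuo-5* (WBGene00021562, chromosome V, 2698972 to 2707024), for a large iron-sulphur subunit. *nuo-1* had 123, 85.9 and 61.6 TPM in antimycin A and 156, 110.2 and 103 TPM in EtOH. Each antimycin A library lay below the EtOH library of its number, but the groups overlapped, since antimycin A replicate 1 was above EtOH replicates 2 and 3. The log2 fold change was -0.47 ± 0.28 SE (limma adjusted p = 0.311; blocked 0.0130). *nuo-5* had 60.6, 43.8 and 33.1 TPM in antimycin A and 60.3, 43.0 and 41.2 TPM in EtOH. Replicates 1 and 2 were nearly equal between the treatments and replicate 3 was lower in antimycin A, for a log2 fold change of -0.09 ± 0.28 SE (limma adjusted p = 0.895; 95% interval -0.71 to 0.53).

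Of the accessory subunits, which surround the conserved core, *lpd-5* (WBGene00003061, chromosome I, 4372255 to 4373018) encodes the homologue of mammalian NDUFS4, a subunit whose loss in humans causes Leigh syndrome. It had 384, 321 and 316 TPM in antimycin A and 529, 514 and 497 TPM in EtOH. The EtOH libraries were close to each other, and all lay above the antimycin A libraries. The means were 340.2 ± 38.2 TPM in antimycin A and 513 ± 15.8 TPM in EtOH (SD, n = 3 each), a log2 fold change of -0.60 ± 0.18 SE (limma adjusted p = 0.0391; blocked 0.00175). The call was close to the threshold and was lost when antimycin A replicate 2 (adjusted p = 0.154), antimycin A replicate 3 (0.0741), or replicate 1, 2 or 3 of EtOH (0.0774, 0.146 and 0.111) was left out. It was also lost after quantile normalization (log2 fold change -0.35, adjusted p = 0.136) and without the mean-variance trend (0.132), and the direction was the same in each of these fits.

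*nuo-6* (WBGene00012166, chromosome I, 7068106 to 7069186), for an accessory subunit of the membrane arm, had 202, 184 and 110.4 TPM in antimycin A and 303, 193 and 166 TPM in EtOH. It was lower in 3 of 3 pairs, by little in pair 2, and its groups overlapped (log2 fold change -0.41 ± 0.29 SE, limma adjusted p = 0.418; blocked 0.0310). *nuo-3* (WBGene00013308, chromosome IV, 14796421 to 14797544), for an accessory subunit of the peripheral arm, had 235, 229 and 197 TPM in antimycin A and 284, 268 and 208 TPM in EtOH. It was lower in each pair by a small amount, least in pair 3, but antimycin A replicates 1 and 2 lay above EtOH replicate 3 (-0.19 ± 0.20 SE, limma adjusted p = 0.621, 95% interval -0.64 to 0.25). *nuo-4* (WBGene00019401, chromosome III, 7156032 to 7158809), for an accessory subunit at the base of the membrane arm, had 79.2, 64.6 and 37.2 TPM in antimycin A and 66.5, 53.2 and 48.97 TPM in EtOH. It was higher in antimycin A in pairs 1 and 2 and lower in pair 3 (0.05 ± 0.30 SE, limma adjusted p = 0.958; 95% interval -0.61 to 0.70), and the fitted value was negative after median-of-ratios scaling (-0.24) and quantile normalization (-0.27).

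**Figure D3:**
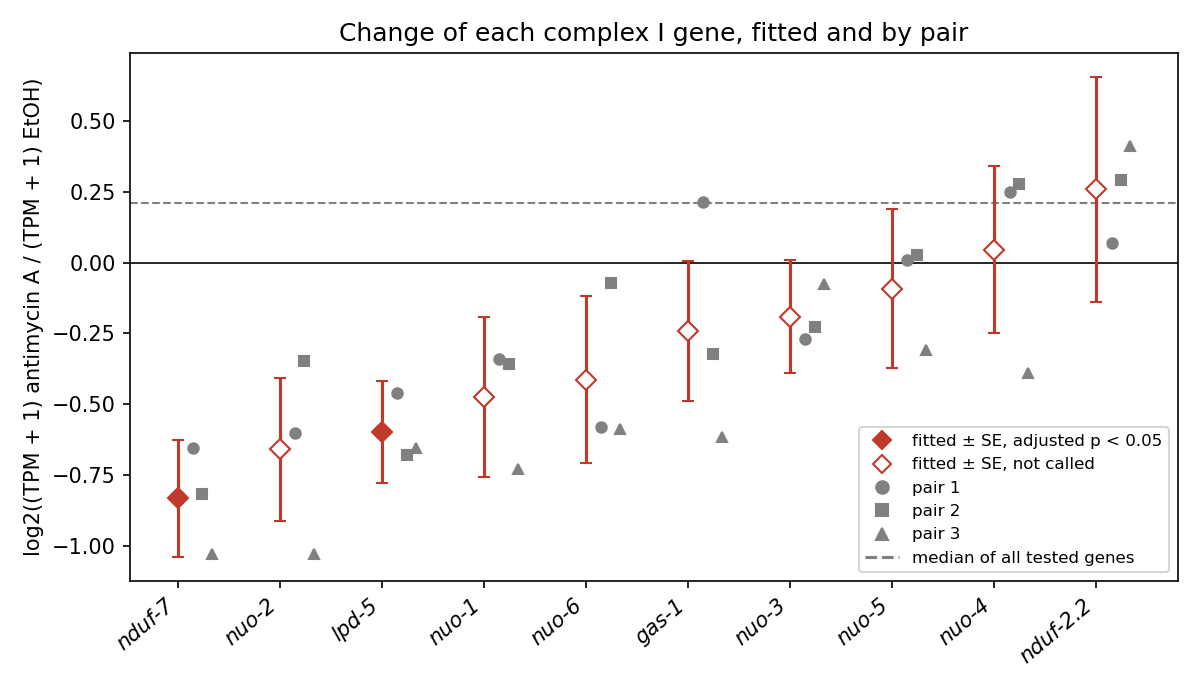
Log2 fold change of each gene, antimycin A over EtOH on the log2(TPM + 1) scale, with the fitted value and its SE (diamonds) and the value of each pair (grey symbols); the dashed line is the median of all tested genes, 0.21. Filled diamonds mark *nduf-7* and *lpd-5*, the 2 genes past the threshold, and the values run from -0.83 for *nduf-7* to 0.26 for *nduf-2.2*.

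By pair, 6 of the 10 genes were lower in antimycin A in 3 of 3 pairs, as were 20.1% of all tested genes. These were *nduf-7*, *lpd-5*, *nuo-1*, *nuo-2*, *nuo-3* and *nuo-6*. The median log2 ratio of the 10 genes was -0.31, -0.27 and -0.60 in pairs 1, 2 and 3, against 0.11, 0.39 and 0.15 for all tested genes. Levels also moved with the replicate number. Replicate 1 was the highest antimycin A library for 9 of the 10 genes and the highest EtOH library for 8, and replicate 3 was the lowest antimycin A library for 10 and the lowest EtOH library for 8. The matching shares of all tested genes were not taken, so these counts are not shown to be particular to the 10 genes. The part of the high share of ribosomal RNA in antimycin A replicate 3 was not tested. After rescaling to protein-coding genes, *nduf-7* and *lpd-5* passed (limma adjusted p = 0.00901 and 0.0310). Without antimycin A replicate 3, *nduf-7* passed (0.0391) and *lpd-5* did not (0.0741), and the median log2 fold change of the 10 genes was -0.13.

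The 10 genes differed widely in level, although their products are assembled into 1 enzyme. The highest mean was 35.4 times the lowest in antimycin A and 63.2 times the lowest in EtOH. These folds rest on *nduf-2.2*, the lowest in both groups, which encodes the same kind of subunit as *gas-1*. The next lowest, *nuo-5*, had means of 45.8 TPM in antimycin A and 48.1 TPM in EtOH, against highest means of 340 and 514 TPM. In antimycin A the order of the means was *lpd-5*, *nduf-7*, *nuo-3*, *nuo-6*, *nuo-1*, *nuo-2*, *nuo-4*, *gas-1*, *nuo-5* and *nduf-2.2*, and only *nuo-5* and *nduf-2.2* were neighbours whose ranges did not overlap. In EtOH it was *nduf-7*, *lpd-5*, *nuo-3*, *nuo-6*, *nuo-2*, *nuo-1*, *gas-1*, *nuo-4*, *nuo-5* and *nduf-2.2*. There *lpd-5* stood clear of *nuo-3*, *nuo-6* of *nuo-2*, *nuo-1* of *gas-1* and *nuo-5* of *nduf-2.2*, and the other neighbours overlapped.

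The other 22 nuclear complex I subunit genes were flavoprotein, iron-sulphur and accessory subunits. In this list 11 fell, 11 were not called and 0 rose, beside 6.47% lower and 14.2% higher among all tested genes. The count of lower genes was 6 without antimycin A replicate 2, 4 without EtOH replicate 2 and 7 without EtOH replicate 3. All 22 had a negative log2 fold change, as had 3857 of the 11099 tested genes, and the median was -0.59. They summed to 5867, 5210.4 and 4913 TPM in antimycin A and 8342, 7881 and 8153 TPM in EtOH. The 6 with the smallest p were *F42G8.10*, *C34B2.8*, *F37C12.3*, *C16A3.5*, *Y51H1A.3* and *C33A12.1*.

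*F42G8.10*, named *ndub-11* in the reference gene table, had 89.2 ± 24.1 TPM in antimycin A and 228 ± 14.2 TPM in EtOH (SD, n = 3 each; log2 fold change -1.38 ± 0.23 SE, limma adjusted p = 0.00219). *C34B2.8* (*ndua-13*) had 146 ± 40.2 TPM in antimycin A and 319 ± 15.9 TPM in EtOH (-1.16 ± 0.23 SE, limma adjusted p = 0.00539). *F37C12.3* (*ndab-2*), annotated as an acyl carrier protein, had 144.5 ± 31.96 TPM in antimycin A and 308 ± 45.98 TPM in EtOH (-1.10 ± 0.23 SE, limma adjusted p = 0.00673). For all 3 every antimycin A library was below every EtOH library. *C16A3.5*, *Y51H1A.3* (*ndub-8*) and *C33A12.1* (*ndua-5*) fell by 0.91, 0.83 and 0.80 on the log2 scale, also without overlap. These 6 were picked by the smallest p of the same comparison, which favours genes without overlap. In the whole list of 22, the antimycin A libraries all lay below the EtOH libraries for 16. The same held for 11.6% of all tested genes, and the share among abundant genes was not taken. When both libraries of pair 2 were left out, 5 of the 6 were no longer called (adjusted p of 0.113 to 0.20015), with the exception of *F42G8.10* (0.049985). *Y51H1A.3* and *C33A12.1* were also lost without EtOH replicate 2 (0.0512 and 0.0507). Without both libraries of pair 3, *C16A3.5* (0.0521), *Y51H1A.3* (0.0567) and *C33A12.1* (0.0625) were lost.

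Over all 32 nuclear subunit genes, calls were found among the abundant ones. Of 27 that averaged 100 TPM or more, 13 were lower, beside 28.9% of all tested genes at that level. Of the 5 below it, which are *gas-1*, *nuo-4*, *nuo-5*, *nduf-2.2* and *Y53G8AL.2* (*nduf-9*), 0 were lower, beside 6.47% of tested genes of any level. Of the 718 tested genes that were lower, 302 were among the 1044 that averaged 100 TPM or more. The share among tested genes below that level was not taken, so 0 of 5 is not shown to be particular to complex I. The split was chosen after the values were seen, and the difference between both sets was not tested.

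**Figure D4:**
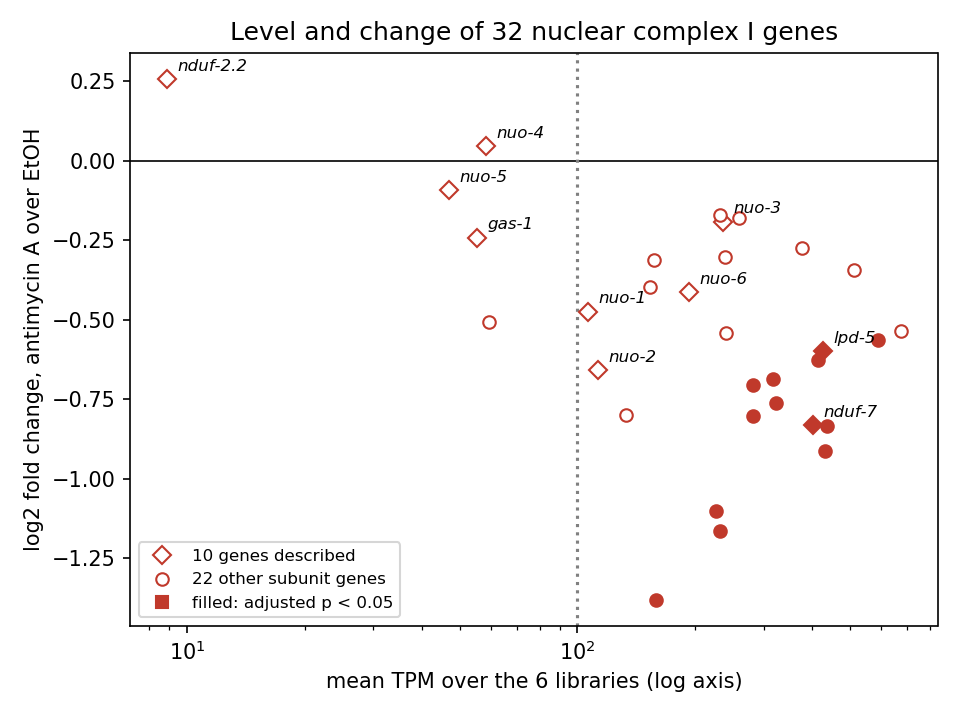
Log2 fold change (antimycin A over EtOH) against the mean TPM over the 6 libraries, on a log axis, for 32 nuclear complex I genes; diamonds are the 10 named genes, circles the 22 others, and filled symbols passed the threshold. All 13 filled symbols lie right of the dotted line at 100 TPM.

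Since all subunits enter the same enzyme, each gene was also expressed as a share of the summed TPM of the 32 nuclear subunit genes, which does not depend on the scaling of a library. That sum was 7458, 6613 and 6007 TPM in antimycin A and 10476, 9823 and 9880.2 TPM in EtOH. The 10 genes together took 20.3% ± 1.77 of it in antimycin A and 19.2% ± 1.52 in EtOH (SD, n = 3 each). *gas-1* took 0.915%, 0.693% and 0.668% in antimycin A and 0.561%, 0.586% and 0.627% in EtOH. *nuo-3* took 3.15%, 3.46% and 3.28% in antimycin A and 2.71%, 2.73% and 2.103% in EtOH. For these 2 genes every antimycin A library was above every EtOH library. This gives the smallest p that the exact permutation test allows, 0.10. The test was run on each of the 10 genes without adjustment for their number, so these 2 are not shown to differ from the rest. The rise of both shares is relative to a sum that fell, in which a gene that fell less gains share. In TPM the groups of both genes overlapped and neither was called (log2 fold change -0.24 for *gas-1* and -0.19 for *nuo-3*). The shares of the nuclear subunit genes outside the 10 were not compared in this way. *nuo-4*, *nuo-5* and *nduf-2.2* had a higher share in antimycin A in 3 of 3 pairs with overlapping groups, *lpd-5* had 5.09% ± 0.21 in antimycin A and 5.10% ± 0.11 in EtOH, and *nduf-7* had 4.34% ± 0.57 in antimycin A and 5.12% ± 0.64 in EtOH.

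The complex I subunits encoded in mitochondrial DNA were considered separately. Of 7 genes 0 were called, with 0 under the replicate block, and their median log2 fold change was 0.12 (-0.15 after median-of-ratios scaling). They summed to 651, 271 and 61.7 TPM in antimycin A and 649.5, 284 and 53.9 TPM in EtOH. The sum was nearly equal within each pair and was far higher in replicate 1 than in replicate 3 of both treatments. The reported fit therefore leaves wide 95% intervals, the widest for *nduo-2*, at -2.42 to 2.58. Its SE was 1.12 there and 0.19 with the replicate block. *ndfl-4*, the one with the smallest p, had 1.34 ± 0.58 TPM in antimycin A and 1.08 ± 0.73 TPM in EtOH (limma adjusted p = 0.785). Of 2 assembly factor genes 0 were called. *nuaf-1* had 12.7 ± 3.70 TPM in antimycin A and 10.28 ± 1.86 TPM in EtOH (limma adjusted p = 0.683), and its fitted sign turned after median-of-ratios scaling.

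For the other lists, the share of all tested genes was 6.47% lower and 14.2% higher, and with the replicate block 13% lower and 29.6% higher. Of the tested genes averaging 100 TPM or more over the libraries, 28.9% were lower. Most genes listed for complexes II, III and IV and for ATP synthase averaged that much. No share of such abundant genes was taken with the replicate block. In the rest of the chain, 12 of 14 nuclear ATP synthase genes were lower, led by *F58F12.1* (310.1 ± 71.8 TPM in antimycin A and 851 ± 183.8 TPM in EtOH, limma adjusted p = 0.00151), with a list median of -1.06. After quantile normalization 7 of the 14 were lower and the median was -0.64, and the share of all tested genes was not taken there. Of 9 genes of complex IV and cytochrome c 3 were lower, led by *cox-5B* (566 ± 65.9 TPM in antimycin A and 1090.3 ± 86.6 TPM in EtOH, limma adjusted p = 0.00467). A count of 3 of 9 is near the share of the abundant genes. The list median was -0.52 and was 0.08 after quantile normalization, and 7 were lower with the replicate block. Of 10 genes of complex III, the target of antimycin A, 1 was lower, *isp-1* for the Rieske iron-sulphur protein (175 ± 43.1 TPM in antimycin A and 374 ± 55.4 TPM in EtOH, limma adjusted p = 0.00665), and 3 with the replicate block. A count of 1 of 10 is near the share of all tested genes and below that of the abundant ones. Of 5 genes of complex II, which feeds electrons into the same ubiquinone pool, 0 were called, with a median of 0.05 that was -0.24 after median-of-ratios scaling; *sdha-2* was called higher with the replicate block (adjusted p = 0.0412). The difference between these lists and the 10 genes was not tested. Of 8 genes of ubiquinone synthesis 1 rose, *coq-3*, for a methyltransferase of that pathway (72.9 ± 2.43 TPM in antimycin A and 32.5 ± 1.88 TPM in EtOH, limma adjusted p = 0.00300), and 2 with the replicate block, neither above the share of all tested genes. Without both libraries of pair 2 the calls of *cox-5B* (adjusted p = 0.131), *isp-1* (0.115) and *coq-3* (0.131) were lost. The call of *cox-5B* was also lost after quantile normalization, where its log2 fold change was -0.36 (adjusted p = 0.136) against -0.95 in the reported fit.

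**Figure D5:**
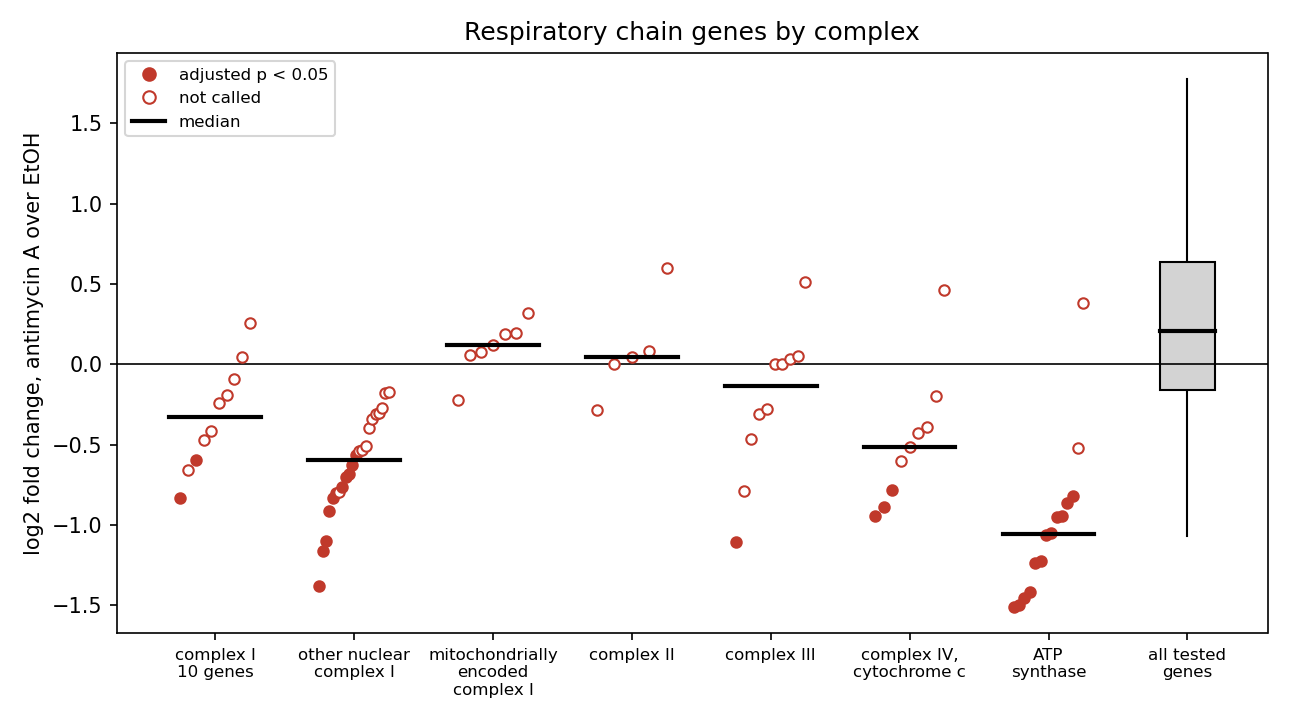
Log2 fold change (antimycin A over EtOH) of each tested gene of the respiratory chain by complex, filled where the adjusted p was below 0.05, with a bar at the median; the grey box spans the 25th to the 75th percentile of all 11099 tested genes, with a line from the 5th to the 95th percentile. The median is -0.33 for the 10 genes, -0.59 for the other nuclear subunits, 0.12 for the mitochondrially encoded ones and -1.06 for ATP synthase.

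Markers of several cell types were present and moved with the treatment, and in such a pool fewer cells of a type and less RNA per cell cannot be told apart. The 10 intestine markers summed to 2713 to 6284 TPM in antimycin A and 12214 to 12702 TPM in EtOH, with 7 lower and 2 higher. The most abundant markers made up most of this sum. *vit-2*, a yolk protein gene and the most abundant of the 10, had 948 ± 342 TPM in antimycin A and 3521 ± 287 TPM in EtOH (SD, n = 3 each, limma adjusted p = 0.000499). The 2 higher were *ges-1*, with means of 35.9 TPM in antimycin A and 15.4 TPM in EtOH (limma adjusted p = 0.0117), and *elt-7*, with 32.9 and 13.8 TPM (0.00608). The 6 hypodermis markers summed to 406 to 945.5 TPM in antimycin A and 1041 to 1320.0 TPM in EtOH, with 1 lower and 1 higher of 5 tested, and 3 lower with the replicate block or after median-of-ratios scaling. The most abundant was the cuticle collagen gene *col-140* (adjusted p = 0.0508; blocked 2.56e-05). The 12 pan-neuronal markers summed to 560.0 to 888 TPM in antimycin A and 304 to 546 TPM in EtOH, with 1 higher of 9 tested, and 4 with the replicate block. The most abundant, *snb-1* for synaptobrevin, had 344 ± 135 TPM in antimycin A and 166 ± 87.2 TPM in EtOH (SD, n = 3 each; limma adjusted p = 0.0911; blocked 7.36e-07) and was higher in 3 of 3 pairs. The 4 gonadal sheath markers summed to 4890.1 to 6545 TPM in antimycin A and 2794 to 4358 TPM in EtOH, and 0 were called, while 2 were higher with the replicate block, among them the most abundant, the innexin gene *inx-8*. The 3 markers of *tbh-1* cells, the 8 of germline and the 6 of muscle (4 tested) gave 0 calls, and the most abundant of each were *tbh-1*, *cgh-1* and *lev-11*. No marker of any of these lists except 1 pan-neuronal gene was at 0 in a library, and the part of these differences in the values of the complex I genes was not tested.

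The 5 tested genes outside the list whose profile over the 6 libraries was most like the mean profile of the 10 genes were *C30H6.9*, *Y44F5A.1*, *lfi-1*, *bar-1* and *sel-12*. Likeness was the root mean square difference of log2(TPM + 1) values centred on each gene's mean. It was 0.028 to 0.058 for these genes, which were picked as the smallest, against a median of 0.46 for all other tested genes. Their levels were low, from 0.83 TPM for *lfi-1* to 17.5 TPM for *C30H6.9* in antimycin A. In EtOH the same genes had 1.32 and 21.5 TPM. Of the 10 genes themselves, *nuo-1* was nearest to that mean profile (0.12) and *nduf-2.2* farthest (0.38). In the deposited coordinates *nuo-3* overlaps another protein-coding gene on the same strand over 885 bases, and *nuo-5* overlaps *C24B9.3* on the opposite strand over 244 bases. The values of *nuo-3* may include reads of its neighbour under any strand setting. Those of *nuo-5* may do so if strand was not used, and the strand setting is not given in the sources used here.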

How the data were processed

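TPM values of 46904 genes stand in the deposited table of all 6 libraries, and 3 further tables, 1 for each pair, repeat them. The authors' tables add a fold ratio, a log2 ratio, an SD, p-values and q-values, which are quoted only as deposited. Per the submitters' processing notes, the tools named are Trimmomatic 0.36, bcl2fastq 2.20, DESeq2 1.28.1, StringTie 2.1.4 and HISAT2, with build WBcel235; the DESeq2 formula is not given in the sources used here. Values of 0.0001, the floor of the deposited TPM, were set to 0. Depth per library is unknown, so no counting interval is given. Columns of other samples numbered 0.

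The log2(TPM + 1) values were fitted in R 4.3.3 by limma 3.58.1, its prior following the mean-variance trend. Genes needed 1 TPM or more in 3 or more libraries, which 11099 met, all 10 complex I genes included. A fold change on this scale understates that of low genes. Adjusted p-values are Benjamini-Hochberg values over all tested genes. The code was tested on simulated data. Other steps used Python 3.11.15 with numpy 2.4.6, scipy 1.17.1, pandas 2.3.3 and, for plots, matplotlib 3.10.9.

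The design text says that each experiment held both kinds of sample. Across genes, which are not independent replicates, libraries of 1 number deviated together from their group means (r = 0.68, 0.31 and 0.59), and the numbers were treated as pairs. The fit with the replicate block leaves few degrees of freedom per gene and borrows much of the variance from other genes.

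The genes and lists were chosen with earlier results of these data known. Named outside the 10 are, by rule, the 6 other complex I subunit genes with the smallest p, the gene with the smallest p of each further list, and the 5 genes of most similar profile. *Y53G8AL.2*, *nduo-2*, *tdc-1*, *cat-1*, *unc-31*, *rgef-1*, *elt-2*, *ges-1*, *elt-7*, *ceh-18* and the overlapping genes were named after their values were seen. The rule also names the marker with the highest mean of each list. Alternatives were other scalings, pseudocounts, filters and variance settings, the replicate block, and each library or pair left out.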

Additional observations from a re-analysis of the deposited data

How the results depend on the processing

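The count of lower genes among the 10 was 2 in the reported fit. It was 5 after median-of-ratios scaling, with sample quality weights (whose estimation stopped before its tolerance was reached) and with the replicate block, and 0 without the mean-variance trend. The 5 under quality weights held *gas-1* and not *nuo-6*. With a library or a pair left out it ran from 0 to 2. For the other 22 nuclear subunit genes the count was 11, and it was 6 without the mean-variance trend, 17 with sample quality weights and 16 with the replicate block, and ran from 1 to 10 with a library or a pair left out. Of these settings, the share of all tested genes was taken only for the reported fit, median-of-ratios scaling and the replicate block. The other counts have no such share beside them. The median log2 fold change of the 10 genes was -0.61 after median-of-ratios scaling and ran from -0.52 to -0.13 with libraries left out. The difference in the ratio of *nduf-2.2* to *gas-1* ran from 0.23 to 0.85 with libraries left out (exact p from 0.20 to 1.0, where a fit with fewer libraries allows no smaller p than 0.20), and with the replicate block it was 0.50 (exact sign-flip p = 0.50). The alternatives for this ratio and for single genes outside the 10, and the background of abundant genes, were chosen after seeing the data.

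Of 190 fits of a single gene (10 genes under 19 alternatives), 153 kept both the direction and the side of the threshold, 14 lost a call, 11 gained one and 12 turned the sign of a value that was not called. The turned values were -0.24 (median-of-ratios scaling) and -0.27 (quantile normalization) for *nuo-4*, which also ran from -0.18 to 0.35 with libraries left out, 0.029 (quality weights) for *nuo-5*, which ran from -0.31 to 0.12, and -0.059 (quantile normalization) for *nduf-2.2*. Outside the 10, values turned for *ndfl-4*, at -0.13 (quantile normalization) and -0.23 (quality weights), and for *nuaf-1*, at -0.0057 (median-of-ratios scaling) and -0.056 (quantile normalization). The cause was not tested. Calls of *nduf-7* and *lpd-5* were kept under both pseudocounts and both other filters. Fits that leave out a pair have 2 libraries a group.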
